A study of Mus musculus with 2 samples.

Results

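The genes described here are 10 serum-response genes of the mouse: Egr1, Egr2, Egr3, Ier2, Ier3, Ier5, Nr4a1, Myc, Zfp36 and Klf10. They were taken by gene name from a deposited table of 22838 genes, and all 10 were found there. No cut on measured values was used in the choice, but earlier results of these data were known when it was made. Messenger RNA was sequenced from NIH3T3 cells, an established mouse fibroblast line, in 1 library of cells given 100 µM ALA over 16 h and in 1 library of untreated cells. Both groups are otherwise described alike, with the same line, RNA isolation and library kit. The labels give the agent only as ALA, and they name no vehicle, no serum condition and no separate cultures. With 1 library per group there was no replicate check of any difference, so no test was made and no p-value is given.

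Serum-response genes, also called immediate early genes, are switched on within minutes when growth factors or stress reach a resting cell, without any need for new protein. Serum response factor (SRF) with its ETS partners acts at the CArG box of many of their promoters when the ERK kinases are active. NF-kB or cyclic AMP signals add to this at some of them. Their messages are as a rule short-lived, often through AU-rich stretches in the 3′ UTR, so their level in fibroblasts follows recent signalling. EGR1, EGR2, EGR3, KLF10 and NR4A1 are DNA-binding factors, MYC drives growth genes, ZFP36 destabilises AU-rich messages, while IER2 and IER5 belong to 1 family of nuclear regulators and IER3, despite its name, does not.

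The promoter windows below, each 250 bases before and 50 bases after the annotated start, come from RefSeq on GRCm38.p6 and are written on the strand of the gene. They are shown because Ier3 and Egr2 were the members with the lowest plain ALA to untreated ratios, Zfp36 shares the CArG box with Egr2, and Ier5 was higher in the ALA library. Capitals mark every match to a motif searched. The windows lie at chr17:35821463-35821762 on the plus strand for Ier3, chr10:67537619-67537918 on the plus strand for Egr2, chr7:28379179-28379478 on the minus strand for Zfp36 and chr1:155099587-155099886 on the minus strand for Ier5.
Ier3: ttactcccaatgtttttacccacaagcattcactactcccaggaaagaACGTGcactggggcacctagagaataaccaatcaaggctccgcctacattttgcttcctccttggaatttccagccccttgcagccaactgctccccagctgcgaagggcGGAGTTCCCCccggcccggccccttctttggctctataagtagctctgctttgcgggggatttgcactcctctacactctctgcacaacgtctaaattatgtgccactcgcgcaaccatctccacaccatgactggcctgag
Egr2: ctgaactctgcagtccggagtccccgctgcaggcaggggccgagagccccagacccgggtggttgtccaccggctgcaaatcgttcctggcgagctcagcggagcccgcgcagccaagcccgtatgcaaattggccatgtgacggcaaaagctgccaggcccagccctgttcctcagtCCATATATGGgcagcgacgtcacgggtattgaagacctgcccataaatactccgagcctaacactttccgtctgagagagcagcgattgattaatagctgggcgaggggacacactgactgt
Zfp36: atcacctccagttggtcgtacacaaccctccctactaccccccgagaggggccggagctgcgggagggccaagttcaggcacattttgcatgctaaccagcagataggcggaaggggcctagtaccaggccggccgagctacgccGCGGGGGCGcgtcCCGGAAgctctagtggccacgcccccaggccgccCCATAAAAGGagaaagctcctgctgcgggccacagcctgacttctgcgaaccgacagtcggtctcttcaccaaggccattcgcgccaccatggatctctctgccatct
Ier5: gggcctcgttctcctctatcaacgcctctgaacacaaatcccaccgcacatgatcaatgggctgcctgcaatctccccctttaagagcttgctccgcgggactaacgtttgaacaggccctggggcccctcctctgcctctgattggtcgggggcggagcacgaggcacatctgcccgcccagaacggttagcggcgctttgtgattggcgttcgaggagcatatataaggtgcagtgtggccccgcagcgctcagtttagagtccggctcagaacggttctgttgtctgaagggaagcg

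Windows were held for 5 members: these 4 and Nr4a1. The motifs were searched on both strands, TATAAA on the strand of the gene only, and positions count back from the annotated start. A CArG box, the site of SRF, stood in 2 of the 5 windows, beginning 72 bases before the start of Egr2 and 58 bases before that of Zfp36. It was found in 1.63% of all 32851 windows of this length. An NF-kB site began 92 bases before the start of Ier3 and another lay across the start of Nr4a1, against 8.46% of all windows. The ETS core CCGGAA was found 92 bases before Zfp36 and 125 bases before Nr4a1 (14.9% of all windows). The EGR motif GCGGGGGCG was found in the same genes, at 105 and 60 bases before the start (2.91% of all windows). The hypoxia element core ACGTG, which also lies within the E-box CACGTG, stood 202 bases before Ier3 (19.6% of all windows). The E-box itself (7.15% of all windows), the cyclic AMP element TGACGTCA (1.79%), the EGR motif GCGTGGGCG (0.612%) and TATAAA (8.32%) matched in none of the 5, and Ier5 held no match to any motif searched. A match describes these letters and is not a binding site shown to be used. The 2 members with a CArG box had unlike values, 2.18-fold lower for Egr2 and 1.25-fold lower for Zfp36 in the ALA library.

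The AU-rich pentamer ATTTA, the core of the elements that ZFP36 binds, was counted in the annotated 3′ UTR of each member. The stretches of 30 bases that hold the most pentamers are shown for the members with the densest pentamers, Ier3 and Nr4a1, and for Zfp36 itself, with the pentamers in capitals.
Ier3: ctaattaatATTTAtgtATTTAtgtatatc
Nr4a1: gATTTAtatttgtgtattttcctggATTTA
Zfp36: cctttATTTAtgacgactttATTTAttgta

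Of the 10 members 9 held at least 1 pentamer, against 65.9% of the 20547 genes with an annotated 3′ UTR. Ier3 carried 5 pentamers in 613 bases, a density of 8.16 per 1000 bases, and 3.01% of UTRs of similar length (within 1.25-fold) had as many. Nr4a1 followed with 3 in 543 bases, which 12.4% of UTRs of its length matched or passed, then Myc with 2 in 442 bases and Zfp36 with 3 in 774 bases. The full nonamer TTATTTATT occurred in Zfp36 alone among the members, beginning 589 bases after the stop codon, and in 7.73% of all genes. Ier5 had 2 pentamers in 2143 bases, a density of 0.933 per 1000 bases against 1.93 over all UTRs, and Ier2 had 0 in 755 bases. The member lowest in ALA relative to untreated cells, Ier3, had the highest density, but Nr4a1 had the next highest and differed by less than counting error. This is a description of 10 genes, with no test.

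**Figure D1:**
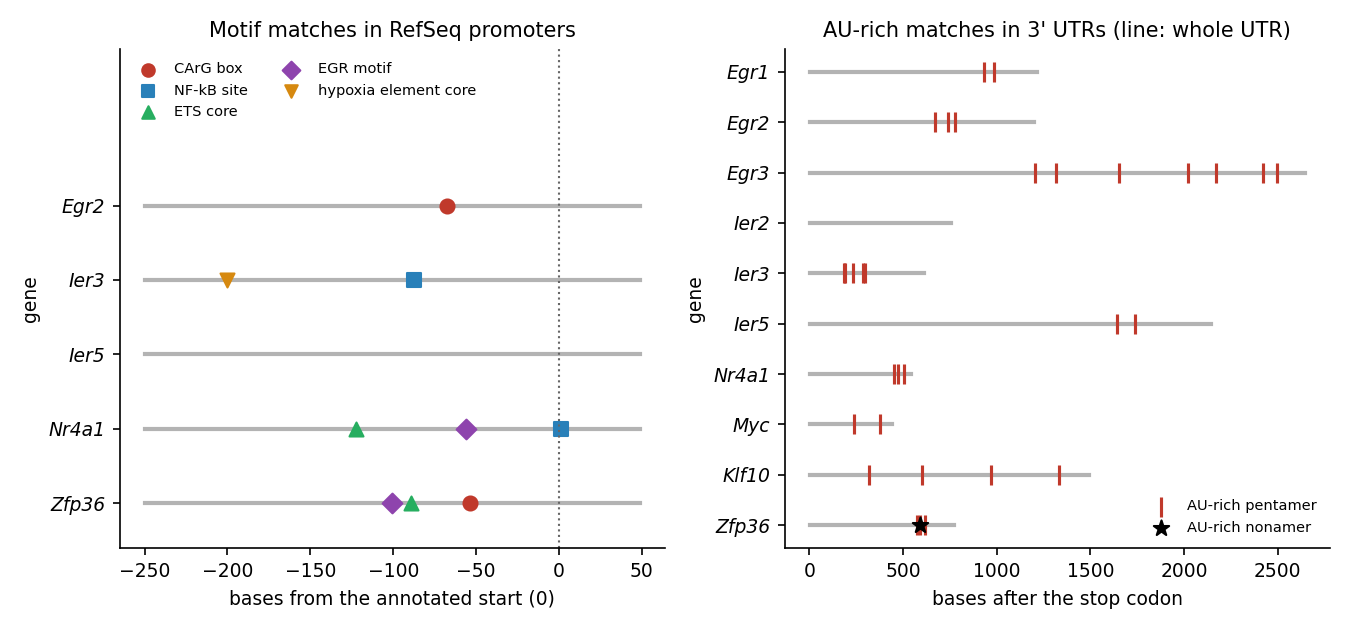
Left, position of promoter motif matches relative to the annotated start for the 5 members with a window; right, positions of the ATTTA pentamers (ticks) and the nonamer (star) in bases after the stop codon, with each 3′ UTR of the 10 members as a grey line. The CArG box appears in Egr2 and Zfp36, Ier5 has no promoter match, and the 5 pentamers of Ier3 lie close together.

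Values are FPKM, fragments per kilobase of transcript scaled to the mapped reads, which compare genes per length. Fold is the plain ratio of 2 FPKM values, and the log2 ratio is log2((ALA FPKM + 1)/(untreated FPKM + 1)), which understates differences of low genes. Thresholds of 1.5-fold and 2-fold were applied on the log2 scale with the added 1. Depth, estimated from the steps between low values, was about 33000000 reads in the ALA library and 23700000 in the untreated library. The 95% intervals given with folds rest on these estimates and cover counting error only. Genes that averaged 1 FPKM or more across the libraries are called measured, and all 10 members were among the 10929 measured genes. All 10 fibroblast markers looked at were measured, such as Col1a1 at 980 and 1047 FPKM and Vim at 1896 and 2272 FPKM in ALA and untreated cells. Epcam, Krt18, Kdr and Alas2, markers of epithelial, endothelial and red cells, were listed at 0 in both, though Krt14 stood at 114 and 84.2 FPKM, with 19.8% of its 41-base stretches shared with other genes. Of 6 epithelial markers 2 were measured (Krt14, and Cdh1 at 0.944 and 1.24 FPKM in ALA and untreated cells), and of 4 endothelial markers 0. Epor, a red cell marker, had 1.83 FPKM in ALA cells and 2.501 FPKM in untreated cells. Krt8, Krt5, Pecam1, Cdh5, Tek, Hba-a1 and Hbb-bs had at most 0.748 FPKM, that of Pecam1 in ALA cells. In RNA from a whole culture, fewer cells expressing a gene and less RNA per cell cannot be told apart.

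In the ALA library 8 of the 10 members were lower and 2 were higher than in the untreated library. Ier3, Egr1 and Egr2 stood furthest down, at 0.396, 0.479 and 0.459 of the untreated level. Ier2, Myc, Zfp36 and Klf10 were lower by 1.12-fold to 1.3-fold, Nr4a1 was within counting error, and Egr3 and Ier5 were higher. Lower values of any size were found for 52.2% of all measured genes. At 1.5-fold, 3 members (Ier3, Egr1 and Egr2) were lower, against a background of 7.16% of measured genes, and none was higher, against 5.9%. At 2-fold, 2 members (Ier3 and Egr1) were lower and none was higher, where 2.01% and 1.49% of measured genes passed. Egr1 lay at the 2-fold threshold, and with equal library totals, a median log2 ratio of 0 or a pseudocount of 5 only 1 member, Ier3, passed it. With a pseudocount of 0.1, 3 members passed it, Egr2 being the other one. The number of all 10929 measured genes at least 2-fold lower moved too. It was 220 as first counted, 389 with a pseudocount of 0.1 and 42 with a pseudocount of 5. With equal library totals it was 172, and 208 when the median log2 ratio was 0. At 1.5-fold, Egr2 no longer passed with a pseudocount of 5, which left 2 members. The number of all measured genes 1.5-fold lower was then 299, against 782 as first counted. The median log2 ratio of the members was -0.30 and that of all measured genes -0.019. The genes were named with earlier results of these data known, so the counts describe them and do not show that they stand apart as a class.

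**Figure D2:**
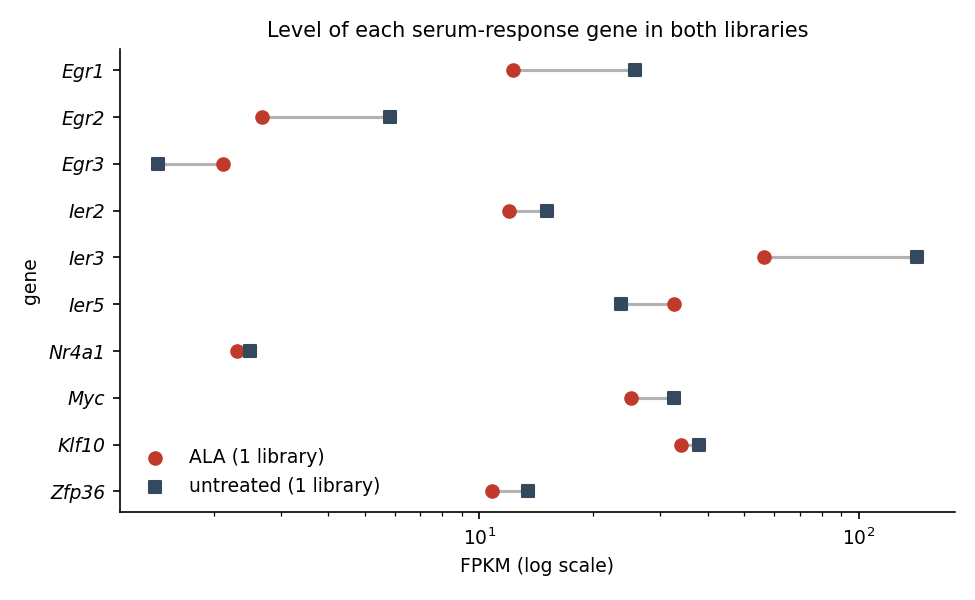
FPKM (log axis) of the 10 members in the ALA library and in the untreated library, 1 point per library and no error bar, as there is 1 library per group. Ier3 was the highest member in both libraries and Egr3 the lowest, and the points of Ier3, Egr1 and Egr2 lie furthest apart.

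The EGR factors are zinc finger proteins that bind the same GC-rich motif. Egr1 (chr18:34861207-34864956, plus strand), the EGR factor most used as a readout of ERK signalling, had 12.3 FPKM in ALA cells, against 25.7 FPKM in untreated cells. It was 2.09-fold lower (interval 1.94 to 2.24), with a log2 ratio of -1.0, and 1.97% of measured genes had a lower log2 ratio. Egr2 (chr10:67537869-67542188, plus strand), which is best known for its role in myelination and T cells, had 2.67 FPKM in ALA cells and 5.82 FPKM in untreated cells. That is 2.18-fold lower (interval 1.86 to 2.55), with a log2 ratio of -0.89. Egr3 (chr14:70077445-70082613, plus strand), needed for muscle spindles, went the other way, with 2.11 FPKM in ALA cells and 1.42 FPKM in untreated cells. It was 1.49-fold higher (interval 1.2 to 1.84) on about 275 and 133 reads, with a log2 ratio of 0.36.

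Egr1 and Egr2 thus differed between the libraries by nearly the same factor, so their ratio to each other was 4.6 in ALA cells and 4.41 in untreated cells, while the ratio of Egr1 to Egr3 was 5.82 in ALA cells and 18.1 in untreated cells. Egr4 was listed at 0 in both libraries. Summed over the family, EGR messages came to 17.1 FPKM in ALA cells and 32.9 FPKM in untreated cells, a ratio of 0.519. Egr3 made up 12.4% of that sum in ALA cells and 4.32% in untreated cells. Of their 41-base stretches, the read length, 0.115% in Egr2 and 0.091% in Egr3 occurred in the other gene, and none of those of Egr1 occurred elsewhere.

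The NAB proteins bind EGR factors and repress through them, and Nab2 is also an EGR target. Nab1 stood at 25.2 FPKM in ALA cells and 22.0 FPKM in untreated cells, and Nab2 at 24.4 and 25.4 FPKM in the same order. Neither was 1.5-fold apart, and 36.2% of the stretches of Nab2 were shared with Gm16229. Of 10 listed EGR1 target genes 8 were measured, of which 4 were higher and 4 lower, where 52.2% of all measured genes were lower. With equal library totals 5 were higher and 3 lower, where 43.1% of all measured genes were lower. The median log2 ratio of these targets was 0.01 as deposited. Pdgfa, a growth factor chain for fibroblasts, was the only one past 1.5-fold, at 11.4 FPKM in ALA cells and 6.79 FPKM in untreated cells. Of all measured genes 5.9% were 1.5-fold higher and 7.16% were 1.5-fold lower. A share of 22.2% of the stretches of Pdgfa occurred in other genes. The matrix and adhesion genes Thbs1, Fn1 and Cd44 were lower, with log2 ratios of -0.46, -0.42 and -0.41.

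The IER genes differed most among themselves. Ier3 (chr17:35821713-35822911, plus strand), a stress and survival regulator also known as IEX-1, had 56.4 FPKM in ALA cells, against 142 FPKM in untreated cells. It was 2.53-fold lower (interval 2.39 to 2.66) on about 2110 and 3820 reads, with a log2 ratio of -1.32, which only 0.759% of measured genes undercut. Ier5 (chr1:155096367-155099636, minus strand), which acts with the heat shock factor HSF1, had 32.6 FPKM in ALA cells and 23.7 FPKM in untreated cells. It was 1.38-fold higher (interval 1.3 to 1.46), with a log2 ratio of 0.45, and 9.94% of measured genes had a higher one. Ier2 (chr8:84661331-84662852, minus strand), a nuclear protein, had 11.97 FPKM in ALA cells and 15.1 FPKM in untreated cells. It was 1.26-fold lower (interval 1.12 to 1.42), with a log2 ratio of -0.31.

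The balance of the IER messages therefore differed between the libraries. Ier3 to Ier5 was 1.73 in ALA cells, against 6.02 in untreated cells, and Ier5 to Ier2 was 2.73, against 1.57. With the related Ier5l, the IER genes summed to 123 FPKM in ALA cells and 206 FPKM in untreated cells, of which Ier3 was 45.9% and 69.3%. Ier3 also carried 29.6% of the summed FPKM of all 10 members in ALA cells and 47.4% in untreated cells. Without it, the remaining 9 members summed to 134 FPKM in ALA cells and 158 FPKM in untreated cells, a ratio of 0.847, against 0.633 with it.

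**Figure D3:**
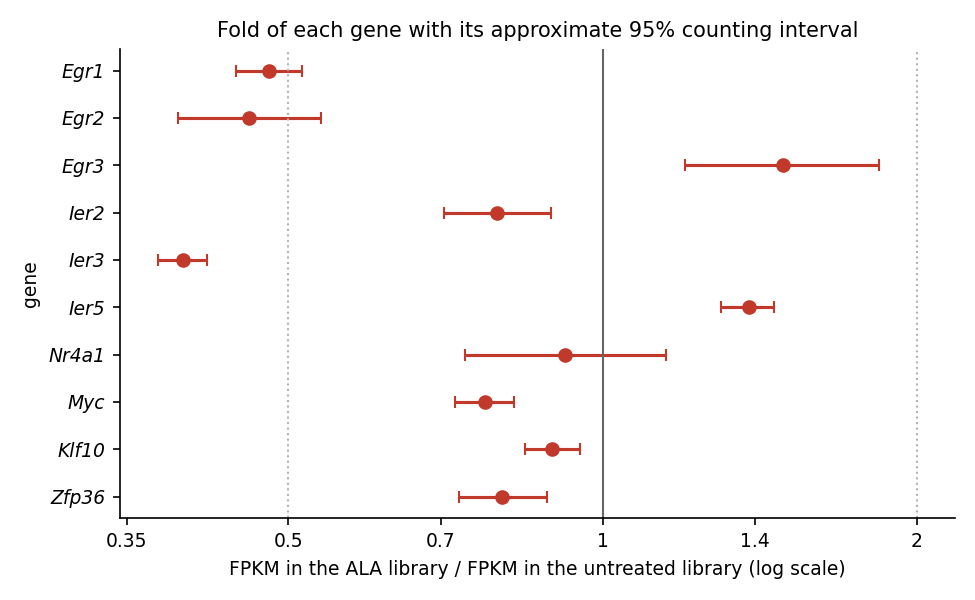
Plain fold of each member, ALA over untreated on a log axis, with approximate 95% counting intervals from the estimated depth; dotted lines mark 2-fold. The interval of Nr4a1 (0.738 to 1.15) spans 1, those of Egr3 and Ier5 lie above 1 and those of the other 7 below it.

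Nr4a1 (chr15:101266846-101274794, plus strand), an orphan nuclear receptor also called Nur77, had 2.29 FPKM in ALA cells and 2.49 FPKM in untreated cells. Its fold of 0.921 had an interval of 0.738 to 1.15, so a difference was not detectable at this depth. Nr4a2 stood at 1.64 FPKM in ALA cells and 1.44 FPKM in untreated cells, and the NR4A family summed to 3.96 and 4.16 FPKM in that order. Nr4a1 is thus a serum-response gene with no detectable difference in libraries where Egr2, which had a like level in ALA cells, was 2.18-fold apart. The interval of Nr4a1 also holds the folds of Myc (0.771), Ier2 (0.793), Zfp36 (0.802) and Klf10 (0.895).

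Myc (chr15:61985341-61990361, plus strand), the growth-promoting partner of MAX, had 25.1 FPKM in ALA cells and 32.5 FPKM in untreated cells. It was 1.3-fold lower (interval 1.22 to 1.38), with a log2 ratio of -0.36, and made up 99.9% of the MYC family sum in ALA cells and 99.7% in untreated cells. All 8 measured of 10 partners in the MYC network were lower, 3 of them by 1.5-fold, where 52.2% and 7.16% of all measured genes were. Their median log2 ratio was -0.36. When both libraries were scaled to equal totals, or to a median log2 ratio of 0 over all genes, 7 of the 8 were lower. Under these 2 scalings 43.1% and 50% of all measured genes were lower. The largest differences were in genes of the MXD group, which compete with MYC for MAX and oppose it, though not in all of them: Mxd3 had 18.97 FPKM in ALA cells and 19.07 FPKM in untreated cells. Mxd4 had 23.1 FPKM in ALA cells and 50.4 FPKM in untreated cells, Mxi1 had 20.04 and 35.4 FPKM, and Mxd1 had 1.53 and 3.88 FPKM. Mlx was lower by less, with a log2 ratio of -0.36 and 19.3% of its exon bases inside another gene. Max itself had 20.1 FPKM in ALA cells and 21.7 FPKM in untreated cells, so Myc to Max was 1.25 in ALA cells and 1.5 in untreated cells.

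Of 13 listed MYC target genes, among them nucleolar and nucleotide synthesis genes, 10 were higher in ALA cells and 3 lower. Their median log2 ratio was 0.11, and 52.2% of all measured genes were lower. Fbl, the nucleolar methyltransferase fibrillarin, had 71.1 FPKM in ALA cells and 53.0 FPKM in untreated cells. Nme1 and Cad, of nucleotide synthesis, had log2 ratios of 0.36 and 0.35. Ldha, lactate dehydrogenase A, was the only one past 1.5-fold, at 800 FPKM in ALA cells and 1208 FPKM in untreated cells, and it did not reach 1.5-fold when the libraries had equal totals or a median log2 ratio of 0. Shares of 11.4% to 20.6% of the stretches of Ldha, Fbl and Nme1 occurred in other genes.

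Zfp36 (chr7:28376784-28379228, minus strand), which encodes tristetraprolin, had 10.8 FPKM in ALA cells and 13.5 FPKM in untreated cells. It was 1.25-fold lower (interval 1.13 to 1.37), with a log2 ratio of -0.29 and 4.99% of its stretches shared with Gm44710. It was a small part of its family, 4.85% of the summed FPKM in ALA cells and 5.35% in untreated cells. Zfp36l2, the largest, had 143 FPKM in ALA cells and 163 FPKM in untreated cells, and Zfp36l1 had 68.6 and 75.2 FPKM, with 56.3% of its stretches shared with another gene. Of the 7 measured genes of this family and its decay partners 3 were higher and 4 lower, and 4 were higher and 3 lower when both libraries had equal totals. The shares of all measured genes that were lower were 52.2% and 43.1% in that order. Cnot8, a deadenylase subunit, was higher at 44.9 FPKM in ALA cells and 28.5 FPKM in untreated cells, and its paralog Cnot7 was lower at 27.7 and 35.3 FPKM.

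Of 11 listed messages known to be bound by ZFP36 7 were measured. All 7 had lower values in ALA cells, 3 of them by 1.5-fold, where 52.2% and 7.16% of all measured genes were, and their median log2 ratio was -0.49. Lif, a cytokine of the interleukin 6 family, had 0.467 FPKM in ALA cells and 2.81 FPKM in untreated cells. It passed the filter only through the untreated library, on about 62 reads in ALA cells and 268 in untreated cells. The chemokine genes Ccl2 and Cxcl1 had 146 and 23.4 FPKM in ALA cells, against 241 and 33.3 FPKM in untreated cells. Plk3, a stress kinase, had 1.27 FPKM in ALA cells and 2.46 FPKM in untreated cells. With equal library totals all 7 were still lower, 2 of them by 1.5-fold, where 43.1% and 5.87% of all measured genes were. Ptgs2, Plk3 and Pim1 of this list are also immediate early genes counted below. Il6, Csf2 and Cxcl2 were listed at 0 in both libraries.

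Klf10 (chr15:38291464-38300711, minus strand), a TGF-beta-inducible repressor of the Krüppel-like family, had 34.1 FPKM in ALA cells and 38.1 FPKM in untreated cells. It was 1.12-fold lower (interval 1.05 to 1.19), with a log2 ratio of -0.16, and 33.3% of measured genes had a lower one. Among 10 other measured Krüppel-like factors 2 were higher and 8 lower, none by 1.5-fold, where 52.2% of all measured genes were lower. With equal library totals 6 were higher and 4 lower, where 43.1% of all measured genes were lower. Klf16 was highest relative to untreated cells with a log2 ratio of 0.47, and Klf13, Klf2 and Klf3 were lowest with -0.38, -0.27 and -0.26. Klf10 was 10.3% of the summed family FPKM in ALA cells and 10.7% in untreated cells.

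The order of levels was nearly kept between the libraries. In ALA cells it ran Ier3, Klf10, Ier5, Myc, Egr1, Ier2, Zfp36, Egr2, Nr4a1 and Egr3. In untreated cells Myc and Egr1 stood above Ier5, and the rest was in the same order. Within the ALA library the counting intervals overlapped between Klf10 and Ier5, between Egr1 and Ier2 and between Ier2 and Zfp36. They overlapped too between Egr2 and Nr4a1 and between Nr4a1 and Egr3. Those of Egr2 (2.36 to 3.02 FPKM) and Egr3 (1.87 to 2.38 FPKM) also overlapped. In the untreated library they overlapped between Egr1 and Ier5 and between Ier2 and Zfp36. The spread between cultures is not known for any of these levels.

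Against the spread of all genes of like level, Ier3 and Egr1 stood outside the middle 95% of log2 ratios, and the other 8 stood inside it. That range was -0.66 to 0.56 for 3360 genes with a mean of 20 to 100 FPKM, where Ier3, Ier5, Myc and Klf10 lie. It was -0.83 to 0.77 for 4498 genes with 5 to 20 FPKM, where Egr1, Ier2 and Zfp36 lie, and -1.29 to 1.19 for 2322 genes with 1 to 5 FPKM, where Egr2, Egr3 and Nr4a1 lie. Egr2, with a mean of 4.25 FPKM, lies near the upper edge of its group. Its log2 ratio of -0.89 would fall outside the range of the next group, so its place depends on where the groups are cut. Each range holds real and technical differences alike.

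**Figure D4:**
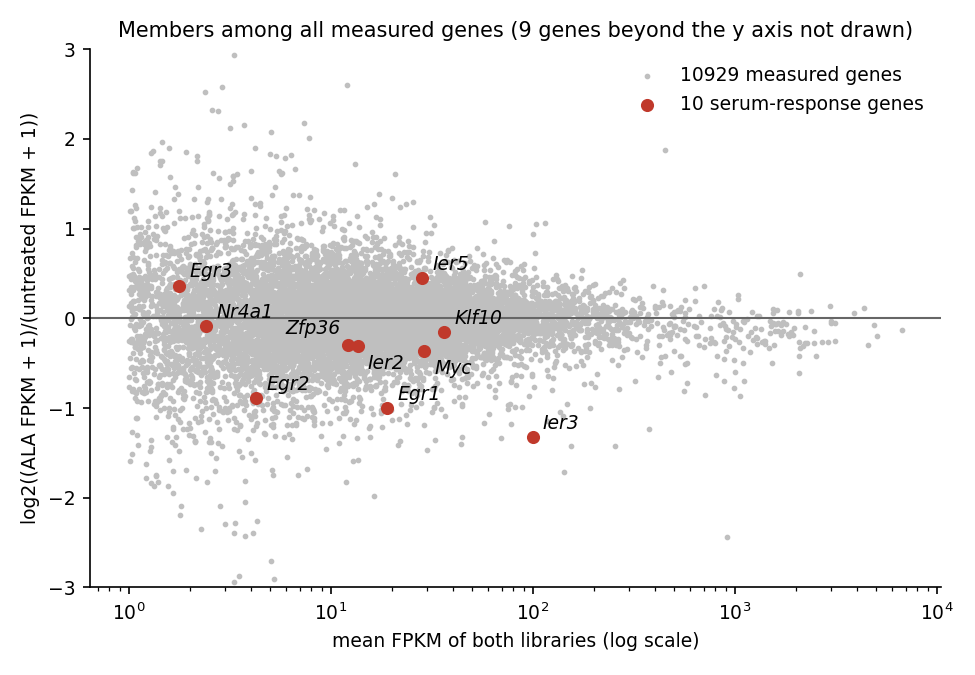
Log2 ratio, log2((ALA FPKM + 1)/(untreated FPKM + 1)), against mean FPKM (log axis) for the measured genes, with the 10 members marked and 9 genes beyond the y axis not drawn. Ier3 (-1.32) and Egr1 (-1.0) lie at the lower edge of the genes of like level, and Ier5 (0.45) and Egr3 (0.36) above the middle.

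SRF and its cofactors, which sit upstream of these genes, differed little: 2 of 6 were higher and 4 lower, none by 1.5-fold. Of all measured genes 52.2% were lower, 7.16% were 1.5-fold lower and 5.9% were 1.5-fold higher. Srf, itself a serum-response gene, had 8.995 FPKM in ALA cells and 7.27 FPKM in untreated cells. The ETS partners Elk1, Elk3 and Elk4 had log2 ratios of -0.13, -0.19 and -0.17, and the actin-regulated cofactors Mkl1 and Mkl2 had -0.08 and 0.11. Of 10 cytoskeletal genes that SRF drives with the MKL cofactors, also called MRTF, 9 were higher and 1 lower. Their median log2 ratio was 0.14, and 52.2% of all measured genes were lower. Cnn1, calponin of smooth muscle, had 2.102 FPKM in ALA cells and 0.637 FPKM in untreated cells, on about 165 and 35.9 reads. It passed the filter only through the ALA library. Acta2 had 304.5 FPKM in ALA cells and 232 FPKM in untreated cells, and Actb and Flna had log2 ratios of 0.26 and 0.22. With equal library totals all 10 were higher, where 43.1% of all measured genes were lower. Most cytoskeletal genes thus lay on the other side of 0 from most members under each scaling.

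The other immediate early genes went both ways, as the members did, with more of them lower. Of 32 listed 28 were measured, 8 were higher and 20 lower, where 52.2% of all measured genes were lower. None was 1.5-fold higher, 7 were 1.5-fold lower and 3 were 2-fold lower, against 5.9%, 7.16% and 2.01% of all measured genes. The median log2 ratio of the list was -0.19. Maff, a small MAF factor, had 6.33 FPKM in ALA cells and 20.9 FPKM in untreated cells. Atf3, a stress-induced factor, had 0.284 FPKM in ALA cells and 2.29 FPKM in untreated cells, on about 18.6 and 107 reads. It passed the filter only through the untreated library and is 1 of the 3 counted as 2-fold lower. Errfi1, a feedback inhibitor of the EGF receptor, had 12.3 FPKM in ALA cells and 28.02 FPKM in untreated cells. Fosl1, Phlda1 and Csrnp1 were lower with log2 ratios of -0.90, -0.85 and -0.73. Of the exon bases of Fosl1 57.2% lay inside another gene, and 30% of the stretches of Phlda1 were shared with another gene. With equal library totals 11 were higher and 17 lower, 1 was 1.5-fold higher and 6 were 1.5-fold lower. Then 43.1% of all measured genes were lower, and 5.87% were 1.5-fold lower.

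**Figure D5:**
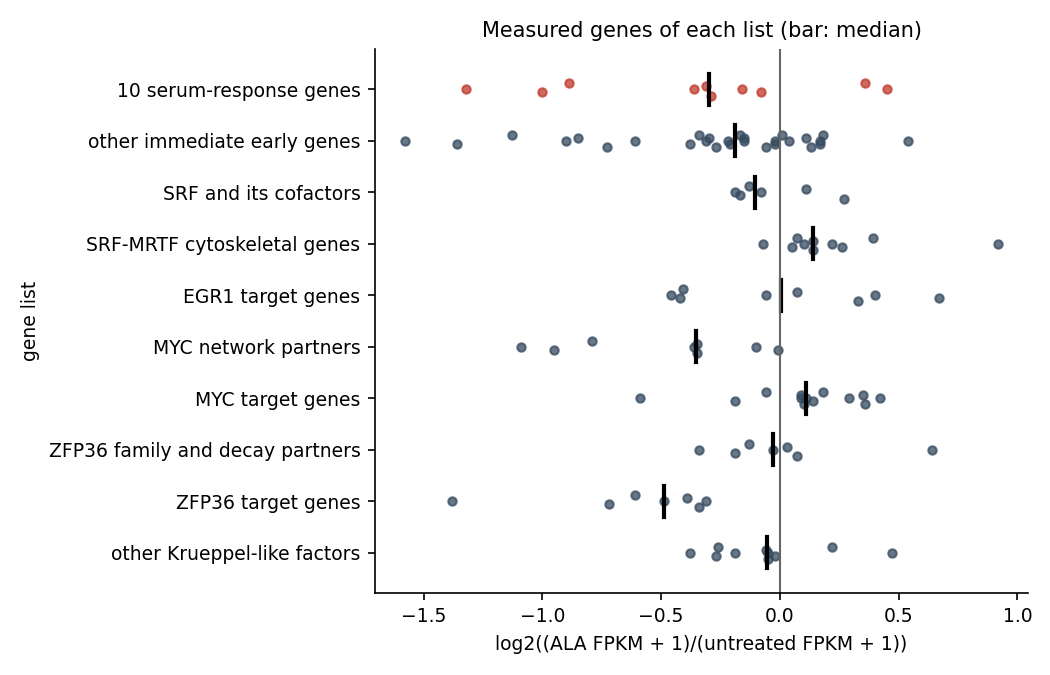
Log2 ratios, log2((ALA FPKM + 1)/(untreated FPKM + 1)), of the measured genes of the 10 lists drawn, 1 point per gene, with list medians as bars; the cell type marker lists and the NAB list are not drawn. Among the lists drawn, the ZFP36 target genes (median -0.49) and MYC partners (-0.36) lie lowest, and the SRF-MRTF cytoskeletal genes (0.14) and MYC target genes (0.11) highest.

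The scaling of the libraries bears on all of these counts. As deposited, 645 measured genes were 1.5-fold higher and 782 lower, and with equal library totals 848 were higher and 642 lower, with a median log2 ratio of 0.05 over all genes. The directions of all 10 members were the same under both. Markers of cell type differed too. Among fibroblast markers 9 of 10 were lower, where 52.2% of all measured genes were. Dcn had 100.1 FPKM in ALA cells and 194 FPKM in untreated cells, and Thy1 and Pdgfra had log2 ratios of -0.62 and -0.64. Of 8 macrophage and blood markers 3 were measured, and the list summed to 18.04 FPKM in ALA cells and 29.9 FPKM in untreated cells. Cd14 had 4.69 FPKM in ALA cells and 13.2 FPKM in untreated cells, Lyz2 had 9.59 and 15.2 FPKM, and Aif1 had 1.43 and 0.949 FPKM. Below the filter, Cd68 was higher, with 1.399 FPKM in ALA cells and 0.237 FPKM in untreated cells, as was Itgam, with 0.1202 and 0 FPKM and 66.8% of its stretches shared with another gene. The defining genes Ptprc (0.754 and 0.367 FPKM), Csf1r (0.0466 and 0 FPKM) and Emr1 (0.0113 and 0 FPKM) were near 0. The part of these markers in the values of the members was not tested.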

How the data were processed

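RNA of NIH3T3 cells was sequenced as single-end 41-base reads, 1 library per group. Each gene has 1 FPKM value per library in a deposited Cufflinks tracking table, per the file headers. FastQC 0.11.5, TopHat2 2.1.1 and Cufflinks 2.2.1 on mm10 are named in the submitters' processing notes. For the annotation, options, strand setting and library scaling, the sources used here give nothing. The deposited interval bounds were equal in 100% of rows and carried no error.

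Since FPKM are no counts, count models were left out. Ratios were taken as log2 with 1 FPKM added. Genes averaging 1 FPKM or more entered the counts. Depth was fitted to the steps of low values of genes with 1 transcript, 235 values in the ALA library and 155 in the untreated library. Among those worth few reads at the fitted depth, 37.3% (ALA) and 37.4% (untreated) lay within 0.1 of a whole read. The median over all depths tried was 18.7% and 20%. Close to the fitted depths, 29500000 to 33900000 reads (ALA) and 22700000 to 24700000 (untreated) were nearly as good. Multiples of the true depth can fit nearly as well, so the lowest depth with a good fit was taken. The ranges do not cover depths further away. Counting intervals are exact binomial (folds) or Poisson (levels), at 95%. The procedure was tested on simulated data. For the depth fit the simulated gene lengths varied only slightly, so the test does not show its accuracy on these data. Positions are those of the deposited table (mm10), written from 1. Shared stretches, strands and 3′ UTRs came from GENCODE vM21 on GRCm38, with transcript lengths approximate. The members and lists were chosen with earlier results of these data known. Besides the members, up to 4 genes of each list with the largest log2 ratios were named, 6 for immediate early genes and all of lists of up to 6, apart from 1 marker that is not reported here. Other genes named were chosen after their values were seen, as was the search for AU-rich motifs and TATAAA. Alternatives were the pseudocount (0.1 and 5), the filter on low values (none, and a mean of at least 5 FPKM) and the scaling of the libraries. Computation used Python 3.11.15, numpy 2.4.6, pandas 2.3.3, scipy 1.17.1 and matplotlib 3.10.9.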

Additional observations from a re-analysis of the deposited data

How the results depend on the processing

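The directions of all 10 members were the same under every pseudocount, filter and scaling tried, with 8 lower (6 of the 7 members left at a mean of at least 5 FPKM). Of 57 recomputed member values 2 shifted by at least the distance from the middle of their log2 counting interval to its end. These were Egr1 at -0.83 and Egr2 at -0.50, both with a pseudocount of 5. Whether a value stayed inside its interval was not checked. The number of members at least 2-fold lower was 2, and it was 1 with a pseudocount of 5, 1 with equal library totals and 1 with a median log2 ratio of 0, since Egr1 lies at the threshold, and 3 with a pseudocount of 0.1, which added Egr2. The number at least 1.5-fold lower was 3, and it was 2 with a pseudocount of 5, where Egr2 dropped out, and 2 at the 5 FPKM filter, which Egr2 did not pass. Of the 10929 measured genes 220 were at least 2-fold lower, against 389 with a pseudocount of 0.1 and 42 with a pseudocount of 5. Equal library totals gave 172 and a median log2 ratio of 0 gave 208. At 1.5-fold 782 were lower, against 1037 with a pseudocount of 0.1 and 299 with a pseudocount of 5. The filter at a mean of 5 FPKM left 8607 genes, of which 104 were at least 2-fold lower and 447 at least 1.5-fold lower. The median of the members ran from -0.32 to -0.23. No paired analysis was possible because each group has 1 library, and no replicate could be left out. Depth limits Nr4a1 and Egr3 most, with 133 to 275 reads each.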

Other observations

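Of the listed immediate early genes 4 were too low to be counted with the others. Fos, the partner of JUN in the AP-1 factor, had 0.282 FPKM in ALA cells and 1.53 FPKM in untreated cells, a fold of 0.184 with a counting interval of 0.106 to 0.306, on about 19.6 and 76.4 reads. Nr4a3, an orphan receptor related to Nr4a1, had 0.0324 FPKM in ALA cells and 0.227 FPKM in untreated cells, on about 5.42 and 27.2 reads. Gem and Arc had higher values in ALA cells, on very few reads. Gem had 0.0316 FPKM in ALA cells and 0.0214 FPKM in untreated cells, on about 2.09 and 1.02 reads, with a counting interval of the fold of 0.0823 to 82.1. Arc had 0.0534 FPKM in ALA cells, on about 5.39 reads, and was listed at 0 in untreated cells. These genes were named after their values were seen.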
